A study of Homo sapiens with 30 samples.

Results

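Open chromatin was described around 8 genes for ETS transcription factors that are studied in prostate cancer, namely ERG, FLI1, ETV1, ETV4, ETV5, SPDEF, EHF and ELF3. Members were the entries of 30 deposited peak lists whose summit, the base of strongest signal, lay within 50 kb of the RefSeq body of 1 of these genes. The genes were chosen by name and not by a rule on measured values, but earlier results of these data were known. The rule took 4532 of 4643932 peak entries. Regions of 501 bp, each reaching 250 bp to either side of a summit, were then scored in every library, and 397 of 443798 regions belonged to the 8 genes. ERG held 146 of them, FLI1 61, SPDEF 41, EHF 40, ETV4 33, ETV5 27, ETV1 26 and ELF3 23.

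ETS factors share a DNA-binding domain that reads a GGAA core, and their binding sites are distinguished mainly by the flanking bases and by partner proteins. In many prostate cancers a chromosome rearrangement joins the androgen-responsive start of TMPRSS2 to the coding part of ERG, so that ERG, which is normally active in endothelium and blood, is made in epithelial cells under androgen control. ETV1, ETV4 and ETV5 form the PEA3 subfamily and are rearranged in other tumours, and FLI1 is the closest relative of ERG. SPDEF, EHF and ELF3 are among the epithelial members of the family, and SPDEF was first described as a prostate-derived factor that works with the androgen receptor.

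Chromatin was profiled by Omni-ATAC-seq, an assay that marks accessible DNA by the insertion of sequencing adapters with Tn5 transposase. VCaP and LNCaP, established androgen-responsive prostate cancer lines, were kept for 48 h in steroid-poor medium (8% charcoal-stripped serum) and then for 24 h with vehicle or the synthetic androgen R1881. VCaP received 0.01, 0.03, 0.06 or 10 nM and LNCaP received 0.03, 0.06, 0.1 or 10 nM, with 3 libraries in each of the 5 groups of a line. VCaP is known to carry the TMPRSS2-ERG fusion, and LNCaP is known to carry ETV1 moved into the MIPOL1 locus. Each line comes from 1 patient's tumour, so a difference between the lines is a difference between these cultures. The labels do not say whether replicates were separate cultures, so the tests measure the spread between these libraries, which may be technical.

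Each region was given, for each library, the percentile of the strongest listed peak overlapping it when all peaks of that library were ordered by −log10 p, on a scale from 0 to 100. Lists were first shortened to equal length by dropping the weakest peaks, and a peak is called listed below when it stayed in the shortened list. A value of 0 means that no listed peak was there. Such a region may still hold a weaker deposited peak, down to a −log10 p of 2, and signal below that is not in the lists at all. A rank is a peak's place in its own library and not an amount of signal. Dose comparisons used lists at the length of the shortest list of the line, and comparisons between the lines used all 30 lists at the length of the shortest, called the common scale below. A broad peak gives its rank to every region under it. Regions listed in at least 3 libraries of a fit were tested. A region that reaches 3 libraries through the high group alone had to differ, so its values are given with no test.

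The deposited lists held 105034 to 170787 entries in VCaP and 135254 to 223998 in LNCaP, and the read counts behind them are unknown. A background pileup recovered from the peak statistics, a measure of relative depth, was 1.14 and 1.09 in VCaP vehicle replicates 1 and 2, against 1.78 to 2.74 in the other VCaP libraries and 3.06 to 5.26 in LNCaP. Those 2 libraries are VCaP controls, so VCaP dose results are also given without them where that matters. Start-site peaks were listed in each library at 8 or 9 of 10 luminal epithelial marker genes in both lines. Peaks were listed at 0 to 2 of 4 basal markers in VCaP and at 0 in LNCaP, at 1 to 3 of 6 endothelial markers in VCaP and 1 or 2 in LNCaP, and at 2 or 3 of 6 blood markers in VCaP and 1 or 2 in LNCaP. Stromal markers had peaks at 1 to 3 of 5 genes in VCaP and 2 in LNCaP. Neuroendocrine markers had them at 5 of 5 in VCaP and 4 in LNCaP. The basal gene TP63, the endothelial gene CDH5 and the blood genes PTPRC and ITGAM had no start-site peak in any library. The endothelial gene KDR and the blood gene SPI1 had one in every library, and the blood gene CD14 in every VCaP library.

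The promoters below were taken from RefSeq (GRCh38.p14) because the start-site results turn on them, and each runs 5′ to 3′ on the gene's strand with 250 bases before the annotated start and 50 after it. The main ERG promoter, 77.0% G and C, was overlapped by a deposited peak in all 15 VCaP and all 15 LNCaP libraries. The inner ERG promoter lies inside the gene, and deposited peaks overlapped it in 4 VCaP libraries and 0 LNCaP libraries. The outer EHF promoter was overlapped in 3 VCaP and 15 LNCaP libraries, and the SPDEF promoter in all 30. Capitals mark AGGAAG on either strand and, in the inner ERG promoter, a stretch within 3 mismatches of the androgen receptor element, an inverted repeat of TGTTCT with 3 free bases between its arms.
ERG, main promoter, chr21:38660618-38660917, minus strand: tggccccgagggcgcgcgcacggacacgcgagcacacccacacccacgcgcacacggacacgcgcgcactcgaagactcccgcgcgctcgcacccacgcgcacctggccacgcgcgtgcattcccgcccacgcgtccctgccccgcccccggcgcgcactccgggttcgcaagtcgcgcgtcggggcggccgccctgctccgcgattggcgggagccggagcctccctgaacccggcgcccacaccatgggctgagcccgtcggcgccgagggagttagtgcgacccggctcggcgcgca
ERG, inner promoter, chr21:38498428-38498727, minus strand: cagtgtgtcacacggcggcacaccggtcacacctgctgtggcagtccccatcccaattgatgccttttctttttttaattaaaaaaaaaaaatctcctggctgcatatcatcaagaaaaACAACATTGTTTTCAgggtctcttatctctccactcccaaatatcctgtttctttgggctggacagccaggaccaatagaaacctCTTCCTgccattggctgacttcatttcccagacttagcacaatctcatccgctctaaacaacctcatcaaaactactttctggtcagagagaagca
SPDEF, chr6:34556280-34556579, minus strand: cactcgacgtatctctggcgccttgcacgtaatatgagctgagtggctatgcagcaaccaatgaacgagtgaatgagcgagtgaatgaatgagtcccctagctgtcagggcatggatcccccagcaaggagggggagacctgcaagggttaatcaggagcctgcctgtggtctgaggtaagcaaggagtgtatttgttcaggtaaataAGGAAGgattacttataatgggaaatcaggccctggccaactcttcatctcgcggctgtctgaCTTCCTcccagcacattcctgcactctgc
EHF, outer promoter, chr11:34624007-34624306, plus strand: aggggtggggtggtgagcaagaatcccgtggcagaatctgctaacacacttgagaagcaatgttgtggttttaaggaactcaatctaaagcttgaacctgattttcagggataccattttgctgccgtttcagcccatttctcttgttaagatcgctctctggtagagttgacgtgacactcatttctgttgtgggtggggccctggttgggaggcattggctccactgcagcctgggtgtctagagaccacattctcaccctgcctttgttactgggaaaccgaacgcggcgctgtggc
The same search over 34789 promoters of this length, on both strands, found AGGAAG in 33.7% and the androgen receptor element in 10.8% of them. Neither motif was found in the main ERG promoter or the outer EHF promoter, a statement about these letters in these windows only. The promoter table used here holds 14 promoters of ERG, ETV1, SPDEF, EHF and ELF3.

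ERG, the oncogene of the TMPRSS2 fusion, was the member that differed most between the lines. The number of summits within 50 kb of ERG (chr21:38367261-38661783, minus strand) ranged from 34 to 68 in the 15 VCaP libraries, with a median of 47.0. In the 15 LNCaP libraries it ranged from 9 to 17, with a median of 12.0. Every VCaP library lay above every LNCaP library. The difference was 1.95 ± 0.08 on the log2(summits + 1) scale (SE), a 3.85-fold difference (limma adjusted p = 6.64e-20). Ordered from highest to lowest in VCaP, ERG was the largest but 14 of 19636 protein-coding genes tested, a rank that leaves aside differences toward LNCaP. Of those genes, 26.8% were called higher in VCaP. Because broad VCaP peaks often carry several summits, distinct peaks were also counted, and they ran from 30 to 45 in VCaP against 9 to 17 in LNCaP. The DNA they covered had a median of 26.0 kb in VCaP and 6.74 kb in LNCaP.

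The extra VCaP peaks were spread along ERG and its flanks. Of the 146 ERG regions, 93 had a peak in VCaP libraries only, 9 in LNCaP libraries only and 44 in libraries of both lines. For these counts lists had each line's own length, which is longer in LNCaP. In the deposited lists of full length these numbers were 87, 3 and 56. On the common scale 49 of 87 tested ERG regions ranked higher in VCaP and 3 ranked lower. Over all 199662 regions tested in this comparison, 21.5% were called higher and 32.4% lower in VCaP, and the median difference was −1.44 points, against 11.4 points over the tested ERG regions. Of the 49, 37 were listed in under 3 LNCaP libraries and so entered the test through VCaP alone, and the count and the median are a description only. Counted from the annotated start, 10 of 18 tested regions in the first 100 kb of the gene ranked higher in VCaP, as did 13 of 26 in the second 100 kb and 20 of 32 in the rest. Outside the gene, 2 of 5 before the start and 4 of 6 past the end ranked higher.

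**Figure D1:**
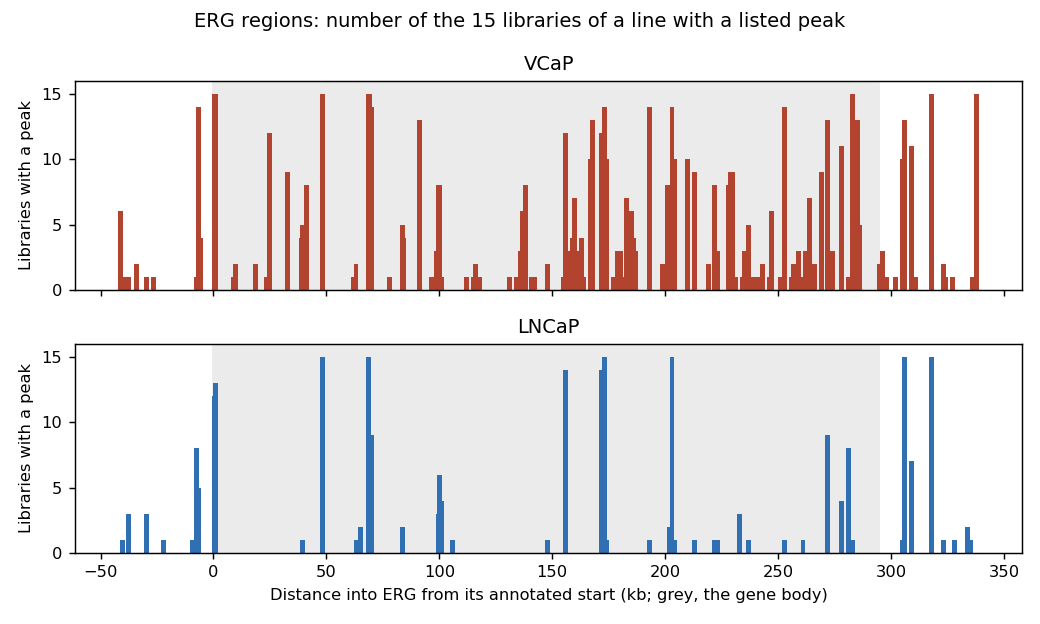
Number of the 15 libraries of a line with a listed peak at each ERG region, plotted against distance from the annotated start in kb, with VCaP above LNCaP and the gene body in grey. Lists had each line's own length, which is longer in LNCaP. Tall bars are spread over the whole gene in VCaP, whereas LNCaP has few bars that reach 15 libraries.

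At the main ERG start the lines were clearly apart. The start region (chr21:38660514-38661014, inside ERG) had a median rank of 75.3 in VCaP on the common scale, with a range of 65.6 to 86.7. In LNCaP the median was 0 and the highest value 43.3. The groups did not overlap, and the difference was 65.8 ± 3.93 points (SE, limma adjusted p = 3.92e-13). The region was called under all 33 alternative analyses, with differences from 7.05 to 72.0 points. On LNCaP's own longer lists the start was listed weakly, at 39.9 ± 18.8 in vehicle, 27.3 ± 5.10 at 0.03 nM, 23.5 ± 12.5 at 0.06 nM, 12.9 ± 11.2 at 0.1 nM and 7.85 ± 11.3 at 10 nM (SD, n = 3). The LNCaP fall of 32.0 points at 10 nM had an adjusted p of 0.0468 and was called under 5 of 13 alternatives only, and it was not called without vehicle replicate 4 or 5 or 10 nM replicate 4 or 5, with all deposited peaks, under ranking by fold enrichment, with only summits inside the region or in a fit of only the groups compared.

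A region 23.4 kb past the end of ERG (chr21:38343656-38344156, inside the non-coding gene LINC01423) had the highest mean ERG rank in both lines. Its median on the common scale was 84.7 in VCaP, with a range of 70.3 to 91.6, and 66.9 in LNCaP, with a range of 42.0 to 77.7. The ranges overlapped and the difference was 16.6 ± 2.73 points (adjusted p = 1.53e-05). Ranking peaks by fold enrichment instead gave 5.04 points and no call. A region 338 kb from the annotated start and past the gene's end (chr21:38323717-38324217) had a peak in all 15 VCaP libraries and in no LNCaP library, in the shortened and in the deposited lists, with VCaP group means of 37.9 to 48.8. It was the only one of the 397 regions with that pattern. The reverse contrast was small at ERG, and the lower VCaP region of smallest p (chr21:38458243-38458743, inside the gene) differed by −20.7 ± 6.39 points (adjusted p = 0.00848).

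Summits at ERG in VCaP became more numerous with androgen. A broad peak can hold several summits, and distinct peaks were not tested by dose. Summits were 39, 34 and 40 in the VCaP vehicle libraries, 41, 42 and 46 at 0.01 nM, 52, 47 and 53 at 0.03 nM, 47, 45 and 68 at 0.06 nM and 67, 67 and 63 at 10 nM. The 10 nM libraries all lay above the vehicle libraries. In LNCaP the corresponding counts were 10, 15 and 17 in vehicle, 9, 11 and 15 at 0.03 nM, 11, 14 and 13 at 0.06 nM, 11, 12 and 9 at 0.1 nM and 11, 12 and 13 at 10 nM, with overlap between all groups. In VCaP the change at 10 nM was 0.79 ± 0.14 on the log2 scale (SE, limma adjusted p = 0.0345), where 0.0308% of 19456 genes were called higher. The change per dose step was 0.19 ± 0.03 (adjusted p = 0.0141), where 0.0822% were called higher.

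These gene-level dose fits were chosen after the counts had been seen. The 10 nM change lost its call when vehicle replicate 1 or 2, any 10 nM replicate, or replicate 4 of 0.01 or 0.03 nM was left out, and when entries under a −log10 q of 5 were dropped. Without both vehicle replicates 1 and 2 it was 0.70 with an adjusted p of 0.854. The change per step lost its call without those entries, without vehicle replicate 2, without 10 nM replicate 1 or 2, and without both shallow vehicles, when its adjusted p was 0.421. In LNCaP the 10 nM change was −0.18 ± 0.17 (adjusted p = 0.608).

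The local background under ERG peaks moved with the same counts in VCaP. It is the median background that the peak caller used there, divided by that over all peaks of the library. Its mean in VCaP was 1.24 ± 0.217 in vehicle, 1.49 ± 0.172 at 0.01 nM, 1.61 ± 0.304 at 0.03 nM, 2.30 ± 0.656 at 0.06 nM and 2.84 ± 0.387 at 10 nM (SD, n = 3). In LNCaP it lay between 0.848 and 0.970 in every library. The 10 nM VCaP libraries, at 2.40 to 3.13, all lay above the vehicle libraries, at 0.994 to 1.41. Signal between the listed peaks and gene copy number both enter this measure, and their part in the number of summits was not tested.

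**Figure D2:**
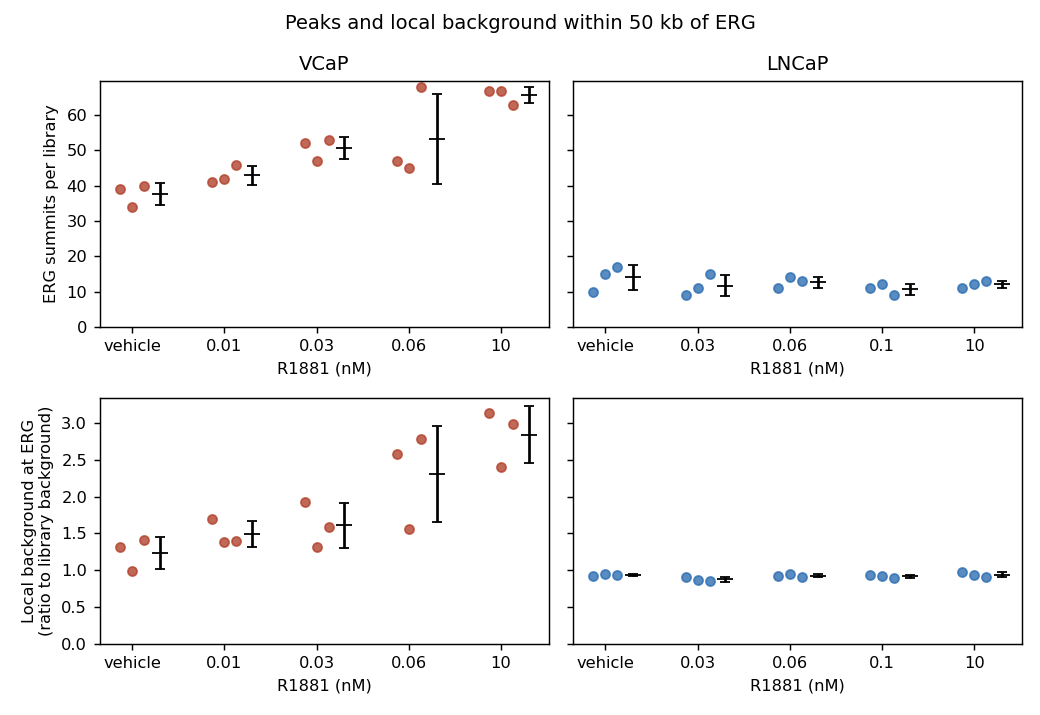
Summits within 50 kb of ERG (upper row) and local background at ERG peaks as a ratio to the library's background (lower row) by R1881 dose in nM, VCaP left and LNCaP right; points are libraries and bars the mean ± SD of 3. Both measures are higher at 10 nM than in vehicle in VCaP, with summits at 63 to 67 against 34 to 40, and the LNCaP groups overlap.

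Single ERG regions went both ways with dose. In VCaP 6 of 82 tested regions rose at 10 nM and 1 fell, against 6.09% rising and 2.63% falling among all 142185 tested regions. Of the 6 rises, 3 are neighbouring regions under a single broad peak. The region of smallest p (chr21:38502388-38502888, inside ERG) entered the test through the 10 nM libraries alone. It was listed at 57.3, 48.2 and 35.0 at 10 nM and in none of the vehicle, 0.01 and 0.03 nM libraries. One 0.06 nM library listed it at 26.5, and no LNCaP library had a deposited peak there.

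The fall at ERG in VCaP lay nearby (chr21:38505731-38506231, inside ERG and the non-coding LOC105372802). Ranks were 18.7, 0 and 0 at 10 nM against 74.9, 68.4 and 71.1 in vehicle, with no overlap, and the change was −65.2 ± 16.3 points (adjusted p = 0.0174). In LNCaP ranks at the same region were 54.9, 52.3 and 65.0 at 10 nM against 67.0, 55.1 and 0 in vehicle, and the change of 16.7 points was not called (adjusted p = 0.439). The VCaP fall lost its call without vehicle replicate 1, without 10 nM replicate 2 or 4, and without both shallow vehicles.

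Another pair of ERG regions was picked out after the values had been seen, since they rise over the doses in VCaP. The first lies 6.50 kb before the annotated start (chr21:38668031-38668531, in no gene body). In VCaP it had group means of 22.8 ± 22.3 in vehicle, 43.5 ± 18.6 at 0.01 nM, 43.5 ± 36.3 at 0.03 nM, 77.1 ± 3.35 at 0.06 nM and 83.8 ± 0.719 at 10 nM (SD, n = 3). The VCaP libraries were at 83.9, 83.0 and 84.4 at 10 nM against 44.5, 0 and 23.7 in vehicle, a rise of 61.0 ± 15.9 points (SE, adjusted p = 0.0224). In LNCaP they were at 30.1, 43.4 and 46.5 at 10 nM against 0, 0 and 19.7 in vehicle, with 2 listed libraries outside 10 nM and so no test. The VCaP call was lost without vehicle replicate 2, without any 10 nM replicate and without both shallow vehicles. The second lies 91.4 kb into the gene (chr21:38570165-38570665), had no deposited peak in LNCaP, and had 76.0, 85.2 and 70.1 at 10 nM against 0, 50.2 and 0.306 in vehicle in VCaP (60.3 ± 16.5 points, adjusted p = 0.0284). That call held under 7 of 14 alternatives and was lost without vehicle replicate 1 or 4, without any 10 nM replicate, without both shallow vehicles and in a fit of only the groups compared.

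In LNCaP 3 of 25 tested ERG regions rose at 10 nM and 5 fell. Among all 188359 regions tested in LNCaP, 15.7% rose and 9.62% fell. Of the 3 rises, 2 were listed in under 3 libraries outside 10 nM. A region 29.7 kb before the start (chr21:38691238-38691738) was listed at 32.1, 36.1 and 22.3 at 10 nM and in no other LNCaP library, while the deposited lists held weaker peaks in 2 further LNCaP libraries. The fall of smallest p (chr21:38489321-38489821, inside the gene) gave 34.1, 0 and 19.9 at 10 nM against 66.4, 66.2 and 77.1 in vehicle, with no overlap (−51.9 ± 10.7 points, adjusted p = 0.00203), and held under all 14 alternatives. In VCaP the same region changed by −22.3 ± 24.4 points (adjusted p = 0.667).

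FLI1, the relative of ERG that is active in endothelium and blood cells, did not differ in its number of summits (chr11:128685132-128813267). It had 7 to 14 summits in VCaP against 7 to 12 in LNCaP, a log2 difference of 0.18 ± 0.10 (adjusted p = 0.126). The annotation table used gives no strand for FLI1, ETV4 and ETV5, and the start regions named for them are those at the end of the gene body with a region nearest to it. At FLI1 this region (chr11:128685007-128685507) was close to unlisted, with a peak in 0 VCaP and 2 LNCaP libraries, at 21.4 and 19.8.

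Of 21 tested FLI1 regions, 4 ranked higher in VCaP and 5 lower, against 21.5% and 32.4% of all tested regions. Of these, 3 of the 4 and 2 of the 5 entered the test through 1 line alone. A region 1.95 kb inside FLI1 (chr11:128686828-128687328) was listed in all 30 libraries, with a median of 81.5 in VCaP against 51.1 in LNCaP on the common scale and no overlap (29.1 ± 2.62 points, adjusted p = 1.03e-09). The opposite pattern lay 46.8 kb outside the gene, inside the potassium channel gene KCNJ1 (chr11:128859781-128860281). There 1 VCaP library listed a peak, at 30.5, and all 15 LNCaP libraries did, at 67.1 to 82.5 on the common scale, a mean difference of −69.3 points.

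With androgen, 0 of 16 tested FLI1 regions were called in VCaP by limma, and 0 had an unadjusted p under 0.05. In LNCaP 2 of 19 were called. Among all tested regions 8.72% were called in VCaP and 25.3% in LNCaP. The LNCaP fall (chr11:128764731-128765231, inside FLI1) gave 61.1, 72.2 and 70.5 at 10 nM against 84.3, 84.7 and 85.5 in vehicle, and the groups did not overlap (−16.9 ± 2.90 points, adjusted p = 5.30e-04). With all deposited peaks it was −8.88 points and not called (adjusted p = 0.127). VCaP changed there by −11.5 ± 14.6 points (adjusted p = 0.719). The other LNCaP region called (chr11:128744645-128745145) was listed at 44.5, 15.1 and 3.65 at 10 nM and at 0 in the other LNCaP libraries, of which 2 had weaker deposited peaks. It entered the test through the 10 nM libraries alone.

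ETV1, the PEA3 factor that is rearranged in LNCaP (chr7:13891229-13991425, minus strand), had 7 to 17 summits in VCaP and 8 to 14 in LNCaP, a log2 difference of 0.05 ± 0.09 (adjusted p = 0.642). Its start region (chr7:13991188-13991688) was listed in all 30 libraries, at a median of 92.2 in VCaP against 80.3 in LNCaP on the common scale. The ranges of 89.7 to 96.1 and 62.9 to 86.4 did not overlap (14.4 ± 2.30 points, adjusted p = 1.04e-05). A region 10.1 kb inside the gene (chr7:13981060-13981560) had the reverse order, with 58.7 to 86.5 in VCaP and 87.1 to 94.2 in LNCaP (−16.1 ± 2.26 points, adjusted p = 1.70e-06). In all 6 of 19 tested ETV1 regions were higher and 6 lower in VCaP, against 21.5% and 32.4% of all tested regions. Of these, 1 of the higher and 2 of the lower regions entered the test through 1 line alone.

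At ETV1 3 of 16 tested regions rose at 10 nM and 1 fell in LNCaP, shares close to the 15.7% and 9.62% of all regions. Of these 3 rises, 1 was listed in under 3 libraries outside 10 nM. In VCaP 0 of 17 were called by limma, where 6.09% and 2.63% of all regions were, and 2 had an unadjusted p under 0.05, 1 in each direction. The rise of smallest p lay 16.2 kb past the gene's end (chr7:13874789-13875289, in no gene body). LNCaP ranks were 0, 1.03 and 0 in vehicle, 43.9, 36.4 and 0 at 0.03 nM, 40.4, 52.5 and 36.5 at 0.06 nM, 54.2, 56.2 and 47.3 at 0.1 nM and 57.5, 52.9 and 47.5 at 10 nM. The 0.06, 0.1 and 10 nM libraries all lay above vehicle. The changes against vehicle were 42.8 points at 0.06 nM (adjusted p = 0.0256), 52.2 at 0.1 nM (0.00485) and 52.3 at 10 nM (0.00171), each with an SE of 10.5. One VCaP library listed the region, at 10.1 with 10 nM. The change differed between the lines by −35.7 ± 8.73 points (adjusted p = 0.00793).

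The ETV1 fall lay inside the gene (chr7:13949363-13949863). LNCaP ranks were 41.0, 29.4 and 6.06 at 10 nM against 76.8, 85.8 and 73.2 in vehicle, a change of −53.1 ± 8.12 points (adjusted p = 2.06e-04), and 10 nM also lay 47.5 points below the mean of the 3 low doses (adjusted p = 1.61e-04). At 0.03, 0.06 and 0.1 nM the differences from vehicle were −7.51, −4.09 and −5.22 points and were not called. In VCaP ranks were 29.2, 60.5 and 29.6 at 10 nM against 72.6, 58.7 and 78.7 in vehicle, with overlap, and the change of −30.2 ± 10.7 points was not called (adjusted p = 0.0936). The difference between the lines was 31.2 ± 13.0 points (adjusted p = 0.150).

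ETV4, also of the PEA3 subfamily (chr17:43527846-43546340), overlaps the gene for the helicase DHX8, so a region in the overlap cannot be assigned to either gene. It had 8 to 13 summits in VCaP and 7 to 12 in LNCaP. The difference of 0.23 ± 0.08 on the log2 scale was called (adjusted p = 0.0204). It was not called when all deposited peaks were used (adjusted p = 0.630), when entries under a −log10 q of 5 were dropped (0.383) or when summits within 10 kb were counted (0.0799). With replicate number as a block it was not called either (0.0971), but that fit does not compare the means of the lines. The ETV4 start region (chr17:43546280-43546780) was listed in 14 VCaP and 15 LNCaP libraries and did not differ past the threshold (−10.6 ± 5.25 points, adjusted p = 0.0915).

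One region inside ETV4 and DHX8 (chr17:43541046-43541546) rose at 10 nM in both lines. VCaP ranks were 92.2, 85.6 and 92.2 at 10 nM against 0, 0 and 79.3 in vehicle (63.6 ± 15.5 points, adjusted p = 0.0185). The 2 vehicle libraries at 0 are the shallow ones, and the call was lost without either of them, without 10 nM replicate 1 or 4, in a fit of only the groups compared, and without both shallow vehicles, when the change was 10.8 points. LNCaP ranks were 90.2, 86.4 and 87.2 at 10 nM against 76.5, 78.8 and 63.0 in vehicle, with no overlap (15.2 ± 3.53 points, adjusted p = 0.00491), a call lost under ranking by fold enrichment and in a fit of only the groups compared.

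A region 10.1 kb outside ETV4 (chr17:43556237-43556737) was listed in all 15 LNCaP libraries and in no VCaP library, although 2 deposited VCaP lists held a weak peak there. It fell in LNCaP, to 15.3, 31.1 and 32.5 at 10 nM against 60.5, 65.6 and 65.7 in vehicle (−37.6 ± 8.57 points, adjusted p = 0.00426). The fall was not called when all deposited peaks were used or when entries under a −log10 q of 5 were dropped.

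ETV5, the third PEA3 factor (chr3:186046314-186109089), had the strongest start region of the 8 genes by median rank in both lines. This region (chr3:186108920-186109420) ranked between 92.6 and 99.4 in VCaP and between 99.5 and 99.9 in LNCaP on the common scale. The groups did not overlap, but the difference was −1.92 ± 0.589 points (adjusted p = 0.00822), and it was 0.233 points, with no call, under ranking by fold enrichment. Taking replicate number as a block also ended the call, but that fit does not compare the means of the lines. The ETV5 locus had 5 to 9 summits in VCaP and 5 to 12 in LNCaP, a log2 difference of −0.14 ± 0.11 (adjusted p = 0.296). In LNCaP the summits fell by 0.15 per dose step on the log2 scale (adjusted p = 0.0466), a call kept under 6 of 20 alternatives and lost, for example, without vehicle replicate 4 or 5 or any 0.03 nM replicate. Of 19526 genes tested per step in LNCaP, 8.62% were called, 4.66% higher and 3.96% lower. At 10 nM against vehicle 0 of the 8 genes passed in LNCaP by limma (1, ETV5, at an unadjusted p under 0.05), where 2.81% of genes were called higher and 2.24% lower, and the ETV5 value was −0.72 (adjusted p = 0.0502).

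The ETV5 region that rose lay 8.78 kb outside the gene (chr3:186117619-186118119, in no gene body). VCaP ranks were 51.0, 56.9 and 61.4 in vehicle, 82.3, 72.1 and 83.2 at 0.01 nM, 86.8, 71.7 and 78.1 at 0.03 nM, 93.0, 86.3 and 85.3 at 0.06 nM and 91.6, 85.3 and 90.5 at 10 nM. LNCaP ranks were 0, 0 and 0 in vehicle, 10.8, 0 and 0 at 0.03 nM, 0, 35.6 and 38.9 at 0.06 nM, 65.0, 63.6 and 40.9 at 0.1 nM and 81.3, 66.5 and 75.5 at 10 nM. In VCaP every treated library lay above every vehicle library, and in LNCaP every 0.1 and 10 nM library did.

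At 10 nM the ETV5 region rose by 32.7 ± 4.75 points in VCaP (adjusted p = 6.70e-04) and by 74.4 ± 10.9 points in LNCaP (adjusted p = 1.47e-04). Both calls held under every alternative tested, 15 in VCaP and 14 in LNCaP. The lowest dose called was 0.06 nM in VCaP (31.8 points, adjusted p = 0.00354) and 0.1 nM in LNCaP (56.5 points, adjusted p = 0.00370). In LNCaP 10 nM also exceeded the low doses, by 46.1 ± 8.92 points (adjusted p = 0.00221), while in VCaP that step was 7.03 ± 3.88 points (adjusted p = 0.477). Over the 4 conditions both lines received, the region ranked 58.2 ± 3.71 points higher in VCaP (adjusted p = 1.43e-12). Of the other regions at ETV5, a fall in LNCaP inside the gene (chr3:186103346-186103846) of 34.4 points at 10 nM had an adjusted p of 0.0253 and was not called without vehicle replicate 5, without any 10 nM replicate, or with all deposited peaks.

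SPDEF, the prostate-derived epithelial factor (chr6:34537802-34556329, minus strand), held the region with the smallest p for 10 nM of the 397, in both lines. This region lies 39.6 kb before the SPDEF start, inside the neighbouring gene ILRUN (chr6:34595695-34596195). VCaP ranks were 17.5, 0 and 0 in vehicle, 70.8, 72.0 and 66.2 at 0.01 nM, 89.8, 89.0 and 92.6 at 0.03 nM, 95.2, 98.0 and 96.6 at 0.06 nM and 96.7, 97.3 and 98.1 at 10 nM. LNCaP ranks were 0, 12.7 and 22.5 in vehicle, 82.2, 75.3 and 68.8 at 0.03 nM, 90.0, 88.6 and 83.6 at 0.06 nM, 92.1, 91.2 and 85.6 at 0.1 nM and 91.6, 82.0 and 89.4 at 10 nM. In both lines every treated library, the lowest dose included, lay far above every vehicle library.

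In VCaP the SPDEF region rose by 63.9 points at 0.01 nM, 84.7 at 0.03 nM, 90.8 at 0.06 nM and 91.5 at 10 nM (SE 5.67), with limma adjusted p of 9.48e-05, 1.60e-06, 3.94e-07 and 4.19e-07. In LNCaP it rose by 63.7 points at 0.03 nM, 75.7 at 0.06 nM, 77.9 at 0.1 nM and 76.0 at 10 nM (SE 5.30), with adjusted p of 4.30e-06, 4.51e-07, 2.79e-07 and 2.45e-07. It was the only member region called at 0.01 and at 0.03 nM in VCaP and at 0.03 nM in LNCaP. All 15 alternatives for VCaP and all 14 for LNCaP kept the 10 nM call, including the 1 without both shallow vehicles. The 10 nM ranks exceeded those of the low doses by 11.8 ± 4.63 points in VCaP (adjusted p = 0.209) and 3.52 ± 4.33 points in LNCaP (adjusted p = 0.680), and neither was called. The changes at 10 nM differed between the lines by 7.48 ± 6.58 points (adjusted p = 0.576).

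The authors' own peak values at this SPDEF region followed the ranks. The deposited fold enrichment over local background was 6.69, 5.78 and 7.41 at 10 nM in VCaP, against 1.92 and 1.91 in the vehicle libraries with a deposited peak. In LNCaP it was 9.06, 5.86 and 7.04 at 10 nM, against 2.21 and 2.12 in vehicle, where the other library had none. By the root mean square difference of the 10 group means, the regions most like it elsewhere in the genome lay 107 kb from ADCY8, 7.27 kb from ZDHHC21 and 319 kb from GPC5, at 3.68, 5.66 and 6.09 points.

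**Figure D3:**
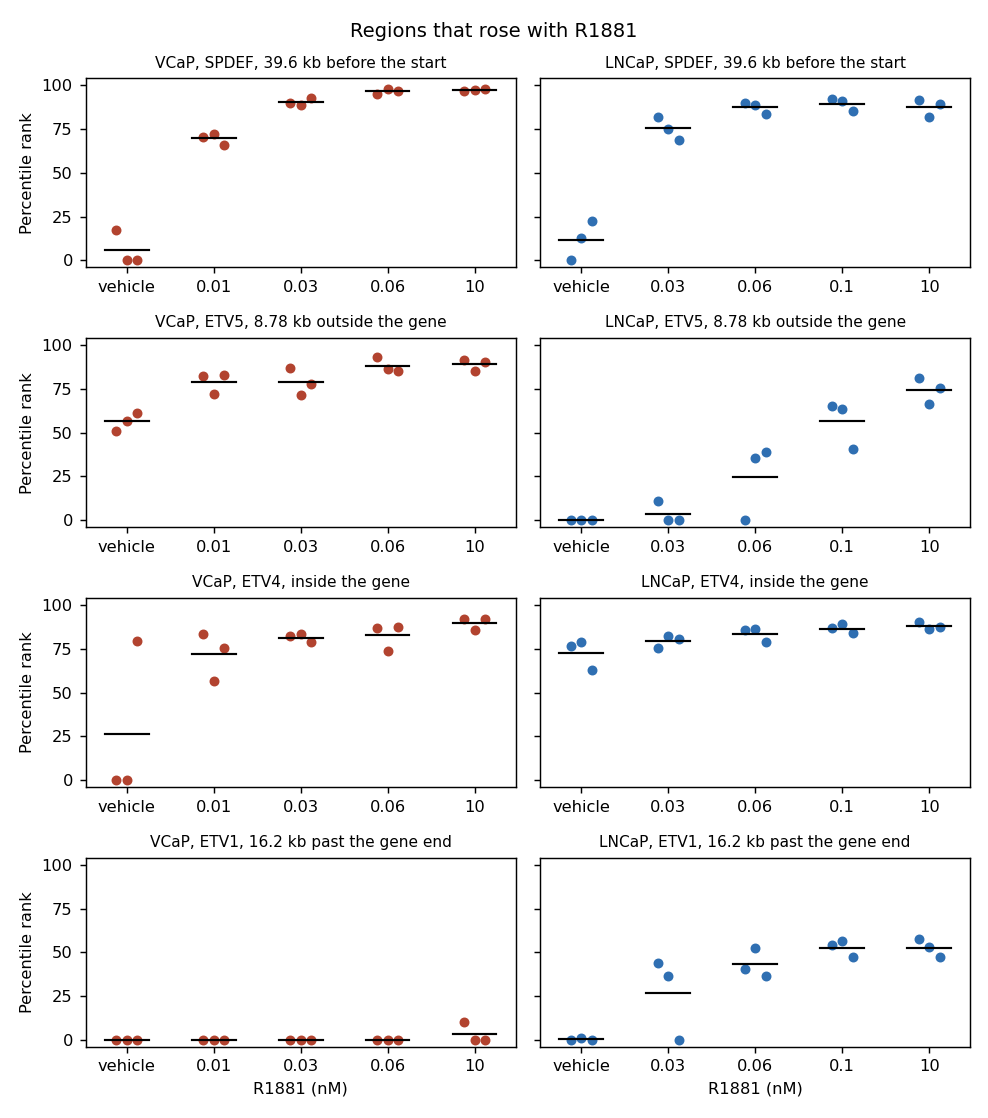
Percentile rank by R1881 dose in nM at 4 regions that rose in LNCaP, at SPDEF, ETV5, ETV4 and ETV1 from top to bottom, VCaP left and LNCaP right; points are libraries and lines group means. The SPDEF region is at 66.2 or above in every treated library of both lines, whereas the ETV1 region is listed in 1 VCaP library.

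Of the other SPDEF regions, 1 lay 46.6 kb before the start and also in ILRUN (chr6:34602715-34603215). It was listed in all 30 libraries and on the common scale ran from 93.8 to 99.3 in VCaP against 43.0 to 78.3 in LNCaP, a difference of 33.2 ± 1.95 points (adjusted p = 2.81e-13). In LNCaP it rose to 83.1, 81.9 and 81.7 at 10 nM, against 64.0, 59.9 and 62.2 in vehicle (20.2 ± 4.28 points, adjusted p = 0.00256). In VCaP it gave 98.9, 99.3 and 98.7 at 10 nM against 95.1, 96.9 and 93.8 in vehicle, and that rise of 3.67 points (adjusted p = 0.0443), close to the top of the scale, was called under 5 of 15 alternatives. Ranked by fold enrichment, the changes were −8.04 points in LNCaP and −2.31 in VCaP.

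The SPDEF locus held more and higher-ranked peaks in VCaP. It had 10 to 23 summits in VCaP and 7 to 10 in LNCaP, a log2 difference of 0.54 ± 0.09 (1.46-fold, adjusted p = 1.13e-05), which shrank to 0.14 and was not called when all deposited peaks were used (adjusted p = 0.316). On the common scale 15 of 18 tested SPDEF regions ranked higher in VCaP and 0 lower, against 21.5% and 32.4% of all tested regions. Of the 15, 4 entered the test through VCaP alone. The start region (chr6:34555961-34556461) had a median of 88.8 in VCaP and 83.4 in LNCaP, with overlapping ranges (6.41 ± 1.56 points, adjusted p = 0.00127), and ranked by fold enrichment it was 6.45 points lower in VCaP, with no call. It was not called with all deposited peaks either. It did not change past the threshold with androgen, by 0.793 points at 10 nM in VCaP (adjusted p = 0.955) and 3.11 in LNCaP (adjusted p = 0.308). Local background at SPDEF peaks was 4.63 to 13.6 times the library's in VCaP and 2.95 to 5.57 times in LNCaP, and its part in these differences was not tested.

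At 10 nM 4 of 18 tested SPDEF regions rose in VCaP and 0 fell, and 4 of 14 rose in LNCaP and 1 fell. Of the 4 VCaP rises, 2 were listed in under 3 libraries outside 10 nM and so had to differ. Over all tested regions 6.09% rose and 2.63% fell in VCaP, and 15.7% rose and 9.62% fell in LNCaP. A VCaP region 5.80 kb past the gene's end, inside PACSIN1 (chr6:34531753-34532253), was listed at 64.7, 20.7 and 65.5 at 10 nM and in no other library of either line, while 1 deposited LNCaP list at 10 nM held a weak peak there. It entered the test through the VCaP 10 nM libraries alone. The LNCaP fall was small, at a strong region 1.08 kb past the end (chr6:34536474-34536974), with 96.9, 95.5 and 96.1 at 10 nM against 98.9, 99.3 and 97.9 in vehicle (−2.55 ± 0.710 points, adjusted p = 0.0151), a call lost with all deposited peaks and without vehicle replicate 4 or 10 nM replicate 4. Its neighbour (chr6:34537088-34537588) was at 96.2 ± 0.692 at 10 nM in LNCaP against 0 in vehicle, where the broad peak then reached it. That neighbour could not be tested when only summits inside a region counted.

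EHF, an epithelial factor with an outer and an inner annotated start (chr11:34621093-34663288, plus strand), differed between the lines at the outer start. The region there (chr11:34623996-34624496) was listed in 2 VCaP libraries, at 21.8 and 35.5, and in all 15 LNCaP libraries, at 20.5 to 68.8 on the common scale. The difference was −42.9 points. At 0.848 kb from the inner start (chr11:34631468-34631968) all 30 libraries listed a peak, with medians of 88.0 in VCaP and 85.5 in LNCaP, and the difference of 3.60 ± 1.75 points was not called (adjusted p = 0.0845).

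In all, 4 of 26 tested EHF regions ranked higher in VCaP and 10 lower, near the 21.5% and 32.4% of all tested regions. Of these, 3 of the 4 and 7 of the 10 entered the test through 1 line alone. Summits numbered 9 to 16 in VCaP and 11 to 18 in LNCaP (log2 −0.12 ± 0.09, adjusted p = 0.263). The region with the widest gap in VCaP's favour lay 20.0 kb before EHF (chr11:34600812-34601312). It ran from 30.3 to 85.6 in VCaP and from 0 to 3.26 in LNCaP, where 2 libraries listed it on that scale. It fell in VCaP, with 30.3, 49.5 and 48.1 at 10 nM against 85.6, 70.5 and 73.7 in vehicle (−34.0 ± 9.27 points, adjusted p = 0.0285). That fall was not called without vehicle replicate 1 or 4, without 10 nM replicate 1 or 4, without both shallow vehicles, or in a fit of only the groups compared.

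At 10 nM 4 of 18 tested EHF regions rose in VCaP and 1 fell, and 5 of 24 rose in LNCaP and 3 fell. Of the 4 VCaP rises, 2 were listed in under 3 libraries outside 10 nM and so had to differ. Of the 3 LNCaP falls, 1 was listed in under 3 libraries outside vehicle. Over all tested regions 6.09% rose and 2.63% fell in VCaP, and 15.7% rose and 9.62% fell in LNCaP. The LNCaP rise of smallest p was in the EHF body (chr11:34653902-34654402), with 83.5, 84.9 and 79.7 at 10 nM against 55.8, 62.3 and 67.2 in vehicle (21.0 ± 4.69 points, adjusted p = 0.00374). One VCaP library listed that region, at 32.3. Counting only summits inside the region gave −9.60 points and no call, and ranking by fold enrichment gave no call. The LNCaP fall was at the region near the inner start, with 83.3, 78.8 and 81.3 at 10 nM against 86.2, 88.8 and 88.4 in vehicle (−6.68 ± 1.76 points, adjusted p = 0.0108), a change not called when all deposited peaks were used or without 10 nM replicate 4.

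ELF3, an epithelial factor of simple and glandular epithelia (chr1:202010587-202017183, plus strand), ranked lower in VCaP at 11 of 17 tested regions and higher at 1. Over all tested regions 32.4% were called lower and 21.5% higher, and 2 of the 11 entered the test through LNCaP alone. The number of summits did not differ, at 10 to 15 in VCaP and 12 to 15 in LNCaP (log2 −0.07 ± 0.07, adjusted p = 0.467). The start region (chr1:202010288-202010788) was among the strongest peaks of both lines, at 91.1 to 97.6 in VCaP and 97.0 to 99.0 in LNCaP (−2.81 ± 0.659 points, adjusted p = 8.80e-04), with the opposite sign and no call under ranking by fold enrichment. The wider gap lay 2.27 kb before the start (chr1:202008065-202008565), where 2 VCaP and 14 LNCaP libraries listed a peak, a mean difference of −54.3 points.

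At ELF3 0 of 15 tested regions rose and 2 fell in VCaP at 10 nM, and in LNCaP 1 of 18 rose and 4 fell. Over all tested regions 6.09% rose and 2.63% fell in VCaP, and 15.7% rose and 9.62% fell in LNCaP. The 2 VCaP falls are neighbouring regions under the same peak, as are 2 of the LNCaP falls. The region of the VCaP fall lay 1.16 kb past the gene's end (chr1:202018091-202018591). VCaP group means were 96.5 ± 0.0328 in vehicle, 93.3 ± 1.06 at 0.01 nM, 88.7 ± 5.24 at 0.03 nM, 84.2 ± 5.83 at 0.06 nM and 80.4 ± 2.41 at 10 nM (SD, n = 3). LNCaP group means were 97.1 ± 0.367 in vehicle, 97.1 ± 0.187 at 0.03 nM, 96.7 ± 0.478 at 0.06 nM, 95.6 ± 0.696 at 0.1 nM and 92.7 ± 0.803 at 10 nM.

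At 10 nM this ELF3 region fell by 16.1 points in VCaP (SE 2.87, adjusted p = 0.00206) and by 4.47 in LNCaP (SE 0.727, adjusted p = 3.39e-04), with no overlap between 10 nM and vehicle in either line. The VCaP call was lost without both shallow vehicles, and both directions turned when only peaks over the centre base of the region counted, which gave rises of 80.4 points in VCaP and 28.0 in LNCaP, neither called. A second ELF3 region, 29.3 kb past the end (chr1:202046199-202046699), fell in LNCaP to 65.4, 60.3 and 59.9 at 10 nM against 84.9, 87.3 and 85.7 in vehicle (−24.1 ± 2.45 points, adjusted p = 7.59e-06). The call held under all 14 alternatives, and 10 nM lay 19.7 points below the low doses (adjusted p = 1.19e-05). VCaP gave 79.8, 55.2 and 77.9 at 10 nM against 77.5, 77.6 and 80.4 in vehicle, a change of −7.55 ± 8.13 points (adjusted p = 0.660).

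The LNCaP region called higher at ELF3 entered the test through the 10 nM libraries alone. It lies 47.6 kb past the end (chr1:202064495-202064995) and was listed at 55.9, 40.8 and 46.0 at 10 nM, at 0.212 in 1 library of 0.1 nM and in no other library of either line. Weaker deposited peaks were there in 1 further LNCaP library and in 2 VCaP libraries.

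**Figure D4:**
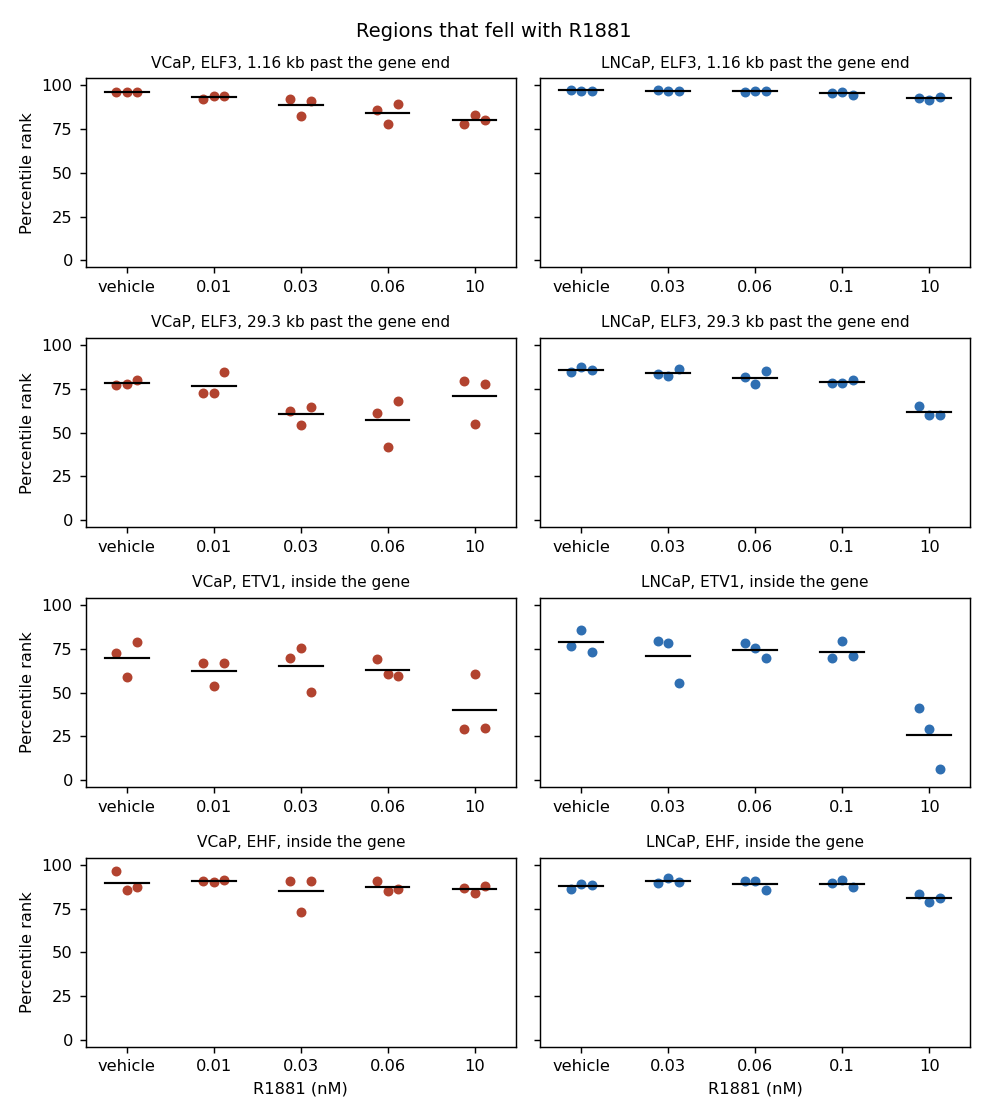
Percentile rank by R1881 dose in nM at 4 regions that fell at 10 nM in LNCaP, 2 past the end of ELF3, 1 inside ETV1 and 1 inside EHF, VCaP left and LNCaP right; points are libraries and lines group means. In LNCaP the ETV1 region stays between 55.7 and 85.8 up to 0.1 nM and is at 6.06 to 41.0 at 10 nM.

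Across the 8 genes more regions were called at 10 nM than at any lower dose in both lines. In VCaP the called member regions were 1 of 185 tested at 0.01 nM, 1 at 0.03 nM, 2 at 0.06 nM and 20 at 10 nM, of which 16 rose and 4 fell. The called regions at the 3 low doses all rose. Among all regions tested in VCaP, 0.0267% were called higher and 0.00281% lower at 0.01 nM, 0.200% and 0.0295% at 0.03 nM (0.230% in all), 0.857% and 0.166% at 0.06 nM (1.02% in all), and 8.72% in all at 10 nM. In LNCaP they were 1 of 143 at 0.03 nM, 6 at 0.06 nM, 12 at 0.1 nM and 38 at 10 nM, of which 20 rose and 18 fell. The 1 and the 6 all rose, and of the 12 at 0.1 nM 8 rose and 4 fell. Among all regions tested in LNCaP, 2.02% were called higher and 0.255% lower at 0.03 nM (2.28% in all), 4.69% and 0.591% at 0.06 nM (5.28% in all), 7.05% and 2.0% at 0.1 nM (9.05% in all), and 25.3% in all at 10 nM. The member shares at 10 nM, 10.8% in VCaP and 26.6% in LNCaP, were thus near the background. Of the rises at 10 nM, 5 of 16 in VCaP and 5 of 20 in LNCaP were at regions listed in under 3 libraries outside 10 nM, and 1 of the 18 LNCaP falls was listed in under 3 libraries outside vehicle.

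The VCaP count at ETS genes rests on few libraries. Without both shallow vehicle libraries 2 regions of the 20 were counted, without 10 nM replicate 1 there were 6, without 10 nM replicate 4 there were 10, and without 10 nM replicate 2 or vehicle replicate 1 there were 12 and 13. Ranking by fold enrichment gave 7 rises and 7 falls in VCaP and 14 rises and 23 falls in LNCaP. Using all deposited peaks gave 26 rises and 7 falls in LNCaP.

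Set against the mean of the 3 low doses, 10 nM raised 9 ETS regions and lowered 2 in VCaP, where 4.01% of all regions were called higher and 1.14% lower (5.15% in all). In LNCaP 10 nM raised 9 and lowered 9, where 8.88% were called higher and 5.78% lower (14.7% in all). Of the 9 raised, 7 in VCaP and 5 in LNCaP were listed in under 3 libraries outside 10 nM. The lines differed in their change at 10 nM at 28 of 219 tested ETS regions, 15 with the higher change in VCaP and 13 with the higher change in LNCaP (6 and 2 of them listed in under 3 libraries outside a single group), against 4.21% and 5.36% of all regions (9.57% in all).

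Between the lines, 88 of the 219 tested ETS regions ranked higher in VCaP and 43 lower, and the median difference was 5.34 points. Of all regions tested, 53.9% were called in one direction or the other. ERG supplied 49 of the 88 and SPDEF 15. Of the 88, 52 were listed in under 3 LNCaP libraries, and of the 43, 21 in under 3 VCaP libraries, so these regions entered the test through 1 line. Among the 397 regions 152 had a peak in VCaP libraries only and 72 in LNCaP libraries only, and 42 had a peak in all 30 libraries. For these counts lists had each line's own length, which is longer in LNCaP. With the deposited lists of full length the numbers were 127, 44 and 47.

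**Figure D5:**
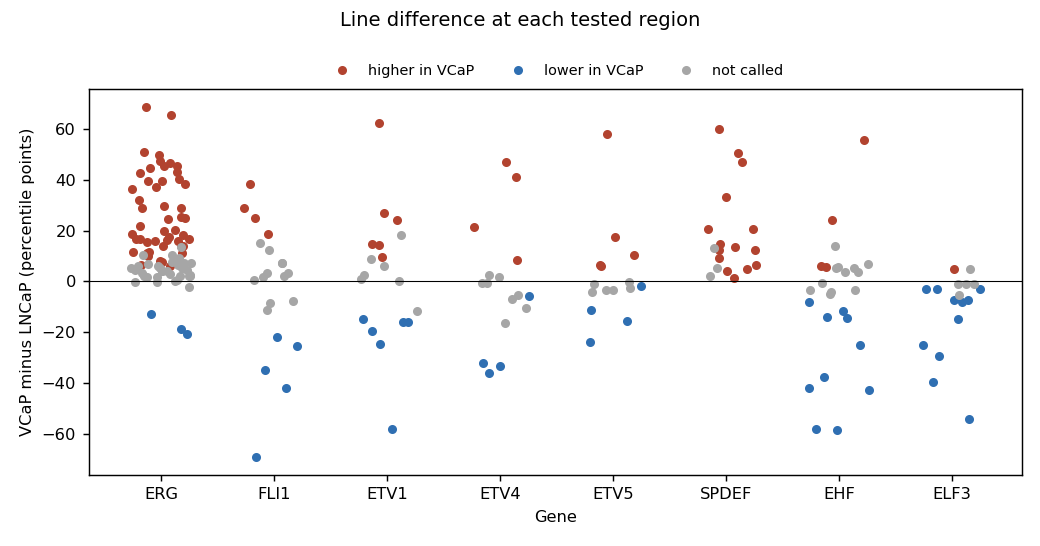
Difference in percentile rank, VCaP minus LNCaP in points, at each tested region of the 8 genes; red points are called higher in VCaP, blue points lower, grey points not called. ERG and SPDEF points lie mostly above 0, and EHF and ELF3 points mostly at or below it.

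TMPRSS2, the androgen-responsive serine protease gene whose start drives ERG in the fusion, had 5 regions of 33 that rose in VCaP at 10 nM and 2 that fell, and 9 of 31 that rose in LNCaP and 3 that fell. The shares over all regions were 6.09% and 2.63% in VCaP and 15.7% and 9.62% in LNCaP. On the common scale 15 of 39 TMPRSS2 regions ranked higher in VCaP and 2 lower, against 21.5% and 32.4% of all tested regions. Its summits differed by 0.49 ± 0.09 on the log2 scale (adjusted p = 2.82e-05). It is 1 of 8 genes listed as fusion partners of ETS genes in prostate cancer, and over all 8, 32 of 246 regions rose and 11 fell in VCaP, and 52 of 228 rose and 32 fell in LNCaP. How many of the regions called at TMPRSS2 and the other partners entered the test through 1 group or 1 line was not counted. MIPOL1, the partner locus of the ETV1 rearrangement in LNCaP, had fewer summits in VCaP, by −0.19 ± 0.06 on the log2 scale (adjusted p = 0.00464). Of all 19636 genes tested for summits, 26.8% were called higher in VCaP and 24.7% lower. A link of the MIPOL1 value to the rearrangement was not tested.

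The other 20 ETS genes measured, chosen as a family list, served for comparison. At 10 nM 6 of the 20 had a region that rose in VCaP and 3 had 1 that fell, and in LNCaP 17 had a rise and 10 a fall. The share of all genes with such a region was not computed. Over their regions, 17 of 276 rose and 5 fell in VCaP, and 46 of 307 rose and 30 fell in LNCaP. These counts are near the shares over all tested regions, 6.09% rising and 2.63% falling in VCaP and 15.7% and 9.62% in LNCaP. Whether these regions entered the test through 1 group alone was not checked, for the counts or for the examples that follow. The examples were picked for their small p, so their values are given with no test. In LNCaP a region inside ETV6, a repressor of the family, reached 94.4 ± 1.91 at 10 nM against 0 in vehicle (SD, n = 3). A region inside ELF2 was at 88.0 ± 0.834 at 10 nM against 4.68 ± 8.11 in vehicle in VCaP (SD, n = 3). In LNCaP the ELF2 region was at 94.0 ± 0.871 at 10 nM against 0 in vehicle (SD, n = 3). Of the 20, GABPA, which lies on the same chromosome as ERG, had the largest line difference in summits, with a log2 value of 1.05 ± 0.12 (adjusted p = 1.06e-08). ETS2, on that chromosome too and nearer to ERG, was not called (−0.10 ± 0.13, adjusted p = 0.538).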

How the data were processed

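Omni-ATAC-seq peak lists of 30 libraries, 1 list per library, were used as deposited. Per the submitters' processing notes, reads were processed with deepTools 3.5.1, MACS2 2.2.7.1, BWA 0.7.17 and Trimmomatic 0.39 (no order given) against GRCh38 (hg38), and parameters are not given in the sources used here. For each peak the authors deposited a summit offset in bp, a score equal to 10 times −log10 p cut to a whole number, a fold enrichment of the summit over local background, a −log10 p-value and a −log10 q-value. These are statistics within a library, so read depth is unknown and no counting interval could be given. Local background was solved from the deposited fold enrichment and −log10 p under a Poisson model in which pileups are whole numbers within 0.05.

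Lists were shortened to 104726 peaks for VCaP and 134750 for LNCaP (all to 104726 on the common scale), and 443798 non-overlapping regions on chromosomes 1 to 22 and X were built around their summits. A peak counted for a region at 1 bp of overlap. Regions with a peak in at least 3 libraries were tested with limma 3.58.1 in R 4.3.3 (trend and robust moderation, all 5 groups of a line in a fit, all 30 libraries between lines), two-sided, with Benjamini-Hochberg adjustment over all tested regions and a threshold of 0.05. Values after ± in points are SE unless SD is named. The line comparison, and the difference of the changes at 10 nM, used the 4 conditions both lines received. Summits per gene were tested on log2(summits + 1). Python 3.11.15, numpy 2.4.6, pandas 2.3.3, scipy 1.17.1, numba 0.67.0 and matplotlib 3.10.9 were used, and the tests were checked on simulated data.

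Named regions of a gene were the 1 nearest its annotated start, the 1 of highest mean rank in each line and those of smallest p in each direction and comparison. A pair of ERG regions, the gene-level dose fits and the alternatives that count only summits inside a region or leave out 2 libraries were added after seeing the data. The members and lists were chosen with earlier results of these data known. Neither the labels nor correlations above 0.1 in every pair tied same-numbered libraries together, so the replicate block is an alternative only. Alternatives were the full lists, a −log10 q of at least 5, peaks over the centre base, ranking by fold enrichment, peaks in at least 8 libraries, regions within 10 kb, fits of only the groups compared, and leaving out each library. No genome sequence was used, so peak sequences are not shown.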

Additional observations from a re-analysis of the deposited data

Results flagged for a closer look

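The change at 10 nM R1881 was called different between the lines, by the test of the difference itself (limma, adjusted over all 199662 tested regions, VCaP change minus LNCaP change in points), at 15 of the regions described. For 5 of them, named below as listed mainly in 1 group, fewer than 3 other libraries listed the region, so the difference is a value with no test. At ERG the difference was 46.8 points for the region at chr21:38502388-38502888 (listed mainly in 1 group, VCaP 10 nM), 60.3 for chr21:38570165-38570665 (adjusted p = 0.0120) and −77.1 for chr21:38505731-38506231 (0.0190). The first pair had no deposited peak in any LNCaP library, so these differences are the VCaP changes, and that at chr21:38570165-38570665 was not called in a fit of only the groups compared. The third lost its call without LNCaP vehicle or 10 nM replicate 5 and without VCaP vehicle replicates 1 and 2, 2 libraries of low depth.

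At ETV1 the difference was −35.7 points 16.2 kb past the gene's end (adjusted p = 0.00793), and it was not called without both shallow vehicles. At ETV4 it was 45.4 points 10.1 kb outside the gene (adjusted p = 0.00278), where LNCaP fell and all VCaP values were 0, with weak deposited peaks in 2 VCaP libraries. With all deposited peaks it was not called (adjusted p = 0.326). A second ETV4 region, inside the gene (chr17:43531415-43531915), gave −18.4 points (listed mainly in 1 group, LNCaP 10 nM, on the common scale). LNCaP libraries listed it at 36.8, 32.4 and 40.5 at 10 nM against 10.7, 5.58 and 0 in vehicle, and VCaP had no deposited peak. At ETV5 the difference was −34.4 points 8.78 kb outside the gene (adjusted p = 0.0372), and 11 of 21 alternatives kept it. VCaP was already at 56.4 points in vehicle there, against 0 in LNCaP.

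At SPDEF the difference was 50.3 points 5.80 kb past the end (listed mainly in 1 group, VCaP 10 nM), −22.3 points 46.6 kb before the start (0.00867) and −97.5 points at chr6:34537088-34537588 (0.00109). The last is a neighbour reached by a broad LNCaP peak, and its difference was not called when only peaks over the centre base counted. The second lies near the top of the scale in VCaP and was not called with all deposited peaks, with a −log10 q of at least 5, under ranking by fold enrichment or without both shallow vehicles. At EHF the difference was 25.1 points for chr11:34597038-34597538 (listed mainly in 1 group, VCaP 10 nM, on the common scale), where the VCaP libraries at 10 nM were at 23.8, 16.6 and 34.8 and all others at 0, while 6 deposited LNCaP lists held a peak. It was −34.0 points 20.0 kb before EHF (adjusted p = 0.00977), not called with all deposited peaks or without both shallow vehicles, and −37.7 points at chr11:34653902-34654402 in the gene (0.0182), which 13 of 20 alternatives kept. At ELF3 it was −10.3 points 1.16 kb past the end (adjusted p = 0.0331), kept by 8 of 20 alternatives, and −32.6 points 47.6 kb past the end (listed mainly in 1 group, LNCaP 10 nM, on the common scale).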

How the results depend on the processing

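Values for single regions and genes kept their direction and their side of the threshold in 1950 of the recomputed cases, lost the call in 159, gained it in 1 and reversed in 18. Counts of called ETS regions with each library left out in turn ran, in LNCaP, from 1 to 3 at 0.03 nM, 2 to 5 at 0.06 nM, 5 to 11 at 0.1 nM, 26 to 40 at 10 nM and 12 to 20 for 10 nM against the low doses. In VCaP they ran from 1 to 3 at 0.01 and 0.03 nM, 2 to 3 at 0.06 nM, 6 to 16 at 10 nM and 1 to 9 against the low doses. They ran from 123 to 134 between the lines, 20 to 28 for the difference of the changes, and stayed at 3 for genes that differ in summits. The count of 6 at 0.06 nM in LNCaP was 3 without 0.06 nM replicate 3 and 2 without replicate 4, and the 12 at 0.1 nM were 5 without vehicle replicate 5 or 0.1 nM replicate 3 and 7 without 0.1 nM replicate 4. The 1 at 0.03 nM in LNCaP was 3 without vehicle replicate 3 and 2 without 0.03 nM replicate 4 or 5, and the 1 at 0.01 and at 0.03 nM in VCaP was 3 without vehicle replicate 4. The 11 for 10 nM against the low doses in VCaP were 1, 2 and 4 without 10 nM replicate 1, 2 and 4, and 7 without 0.01 nM replicate 1 or 2, 0.03 nM replicate 1 or 0.06 nM replicate 1. Leaving out both VCaP vehicle replicates 1 and 2 gave 1 region at 0.06 nM, 2 at 10 nM and 17 for the difference of the changes.

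The causes of the following changes were not tested, except that regions within 10 kb are fewer by construction. Within 10 kb LNCaP counts were 0, 2, 7 and 24 from the lowest dose up, and VCaP counts were 0, 0 and 1 at 0.01, 0.03 and 0.06 nM. Fits of only the groups compared gave 0 at 0.03 nM in LNCaP, and in VCaP 0 at 0.01 and 0.06 nM, 10 at 10 nM and 7 against the low doses. All deposited peaks gave, in VCaP, 2 at 0.01 and 0.03 nM, 4 at 0.06 nM and 7 against the low doses. A −log10 q of at least 5 gave 0 at 0.01 nM, 11 at 10 nM and 4 against the low doses in VCaP, 43 between the lines and 7 for the difference of the changes. Ranking by fold enrichment gave 0 at 0.01 nM and 5 against the low doses in VCaP, and 16 for the difference of the changes. Requiring a peak in at least 8 libraries gave 4 at 0.06 nM, 13 at 10 nM and 0 against the low doses in VCaP, and 17 for the difference of the changes. Against the low doses in VCaP, peaks over the centre base and summits inside the region each gave 5.

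In fits that took replicate number as a block, counts were 11 at 0.06 nM and 49 at 10 nM in LNCaP, 2 at 0.03 nM, 5 at 0.06 nM and 23 at 10 nM in VCaP, 92 between the lines and 34 for the difference of the changes. Between the lines the blocked fit compared single replicate numbers and not the line means, so the 92 cannot check the main count. The ERG summit difference, for example, moved from 1.95 to 2.25 on the log2 scale. In VCaP the block made the SPDEF summit rise at 10 nM, 0.75 on the log2 scale, a called result (without it the adjusted p was 0.347). The labels do not say what a replicate number marks. After group means were removed, same-numbered libraries of different groups correlated at −0.158 to 0.472 in LNCaP, with 22 of 30 pairs over 0.1, and at 0.0751 to 0.334 in VCaP, with 27 of 30. By mean correlation, 10 of 15 LNCaP and 15 of 15 VCaP libraries were closest to their own number, a hint of pairing from the data that the design does not state.

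Reversals under ranking by fold enrichment were 0.233 points for the ETV5 start, −7.19 for the strongest SPDEF region, −6.45 for the SPDEF start and 4.11 for the ELF3 start and its neighbour (line differences), and −8.04 in LNCaP, −2.31 in VCaP and 8.04 for the difference of the changes at the SPDEF region 46.6 kb before the start. A −log10 q of at least 5 gave differences of the changes of 53.1 at the ETV5 region 8.78 kb outside and 13.7 at that SPDEF region. Peaks over the centre base gave 33.6 for the difference of the changes at SPDEF chr6:34537088-34537588, and 80.4 in VCaP, 28.0 in LNCaP and 53.9 for the difference at the ELF3 region 1.16 kb past the end. All deposited peaks gave a line difference of −1.25 at EHF chr11:34597038-34597538. Summits inside the region gave −9.60 in LNCaP and 1.59 for the difference of the changes at EHF chr11:34653902-34654402, and a line difference of 4.72 at the ELF3 region 0.665 kb before the start. A peak under the end of a list is not told from no peak, and VCaP vehicle replicates 1 and 2 were the least deep.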
